A study of Mus musculus with 24 samples.

Results

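Of the 757 endogenous genes counted on the nCounter Mouse Neuroinflammation panel, 29 belong to the machinery of apoptosis and necroptosis and are described here. They were listed by name: 6 caspases (Casp1, Casp2, Casp4, Casp6, Casp8 and Casp9), 4 survival members of the BCL2 family (Bcl2, Bcl2a1a, Bcl2l1 and Bcl2l2), its 3 pore formers (Bax, Bak1 and Bok), 5 of its BH3-only members (Bad, Bid, Bik, Bcl2l11 and Bbc3), the death receptor Fas with 5 signalling genes (Fadd, Cflar, Ripk1, Ripk2 and Dapk1), 3 inhibitors of apoptosis (Xiap, Birc2 and Birc3) and 2 genes of CIDE proteins (Cidea and Cideb). Among the 29, necroptosis is represented by Ripk1, and its executioners Ripk3 and Mlkl were not found by name on the panel. The animals were CD1 pups of both sexes at postnatal day 9. In the hypoxic-ischemic brain injury (HIBI) arm the right common carotid artery was cauterized under isoflurane with local bupivacaine, and the pups later breathed 8% oxygen for 30 min. In sham pups the neck was opened under isoflurane and bupivacaine but the carotid was spared, and they were kept away from the dam in warm normal air. The 3 right-sided tissues (cerebellum, cortex, striatum/thalamus) were collected 30 min later from 4 HIBI pups (numbered 1, 4, 5 and 7) and 4 sham pups (2, 3, 6 and 8), giving 24 libraries. The cerebellum is fed mainly by the vertebral arteries, so carotid cautery spares most of its blood supply while hypoxia reaches it. Sham pups were anesthetized and separated too, so no group is an untouched brain, and the sex of single pups is not given in the labels.

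Apoptosis runs along a mitochondrial and a receptor route. In the mitochondrial route BH3-only proteins relieve the hold of survival members on the pore formers, cytochrome c leaves the mitochondria, and caspase-9 activates the executioner caspases. In the receptor route ligand-bound Fas recruits FADD and caspase-8, which the caspase-8-like protein of Cflar restrains, and when caspase-8 is blocked the kinase of Ripk1 can turn the same complex toward necroptosis. Inhibitors of apoptosis bind caspases (Xiap) or tag signalling proteins with ubiquitin (Birc2, Birc3). The immature brain is known for strong apoptotic capacity, and after neonatal hypoxia-ischemia both apoptotic and necrotic deaths are seen. Much of this machinery is regulated by protein cleavage and movement, which RNA counts do not record.

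The promoters of 4 members with regional differences are shown first, as examples of each pattern described later: Dapk1 and Bok, which were higher in both forebrain regions than in cerebellum of sham pups, Casp1, which was higher in cortex, and Casp2, which was lower in both forebrain regions. Each window runs from 250 bases before to 50 bases after a RefSeq transcription start in the mouse build GRCm38.p6, 5′ to 3′ on the plus strand, and capitals mark each GC box (GGGCGG on either strand). The windows lie at chr13:60601961-60602260 (Dapk1), chr1:93685325-93685624 (Bok), chr9:5298267-5298566 (Casp1) and chr6:42264735-42265034 (Casp2).
Dapk1: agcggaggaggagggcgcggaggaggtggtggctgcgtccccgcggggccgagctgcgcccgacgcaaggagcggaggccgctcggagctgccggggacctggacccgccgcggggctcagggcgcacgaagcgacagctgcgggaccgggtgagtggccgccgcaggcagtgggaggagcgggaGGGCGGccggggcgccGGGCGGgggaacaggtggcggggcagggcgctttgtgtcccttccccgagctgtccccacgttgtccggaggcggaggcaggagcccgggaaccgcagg
Bok: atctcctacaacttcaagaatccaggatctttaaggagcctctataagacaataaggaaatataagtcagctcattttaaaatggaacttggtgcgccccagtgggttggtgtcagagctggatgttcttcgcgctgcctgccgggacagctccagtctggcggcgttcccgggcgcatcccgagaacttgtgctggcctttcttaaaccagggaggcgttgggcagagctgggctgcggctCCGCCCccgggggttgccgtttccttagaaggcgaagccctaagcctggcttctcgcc
Casp1: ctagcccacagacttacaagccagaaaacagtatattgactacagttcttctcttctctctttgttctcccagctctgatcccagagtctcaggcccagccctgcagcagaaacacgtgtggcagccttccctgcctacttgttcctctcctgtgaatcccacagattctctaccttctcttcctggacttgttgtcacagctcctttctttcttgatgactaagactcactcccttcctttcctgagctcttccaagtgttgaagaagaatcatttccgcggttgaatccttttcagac
Casp2: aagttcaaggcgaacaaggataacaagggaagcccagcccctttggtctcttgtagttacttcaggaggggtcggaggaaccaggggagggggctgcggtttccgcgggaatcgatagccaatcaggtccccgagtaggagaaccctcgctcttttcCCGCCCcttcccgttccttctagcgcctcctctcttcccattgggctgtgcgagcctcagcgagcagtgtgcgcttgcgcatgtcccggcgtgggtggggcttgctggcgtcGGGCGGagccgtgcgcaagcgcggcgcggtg
The Casp1 window held 3 CpG pairs and no GC box, whereas those of Dapk1, Casp2 and Bok held 38, 26 and 16 CpG pairs. All 29 members were matched to RefSeq by probe accession, and 26 had at least 1 window, 37 windows in all. The GC box was found in 64.9% of these windows and in 35.7% of all 32851 mouse windows of the same length. Member windows were also richer in CpG, with a median of 20 pairs against 7 in all windows. Of the 26 members, 18 had 1 window and the others had several, and the other genes of the panel were not compared. The AP-1 motif TGANTCA was in 8.11% of member windows and 7.81% of all, and the hypoxia core ACGTG in 24.3% and 19.6%, each searched on both strands. Some members are neighbours: on chromosome 9 the windows of Casp1 and Casp4 start 10332 bases apart and those of Birc2 and Birc3 36113 bases apart, and on chromosome 1 those of Cflar and Casp8 start 91011 bases apart.

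Each library held 855129 to 1134995 counts over all probes, and the 8 negative control probes averaged 17.8 to 26.1 counts. All 29 members were tested in every comparison. A level was called above background when it was more than 2 SD over the mean of the negative controls in that library (over 29.5 to 43.5 counts), and 25 members met this in all 24 libraries. Bik, a BH3-only gene, met it in 0 libraries and is therefore not separable from background, and Casp4, Fas and Birc3 met it in 6, 11 and 15 libraries. Probes differ in efficiency, so levels are compared between samples and never between genes. Bcl2a1a has near-identical copies in the mouse genome, and its counts may include them. Values are normalized counts, that is, counts divided by the scaled library size. Region labels matched their markers in sham pups: the summed cortical genes Tbr1 and Slc17a7 were at 9545 to 11811 in cortex and at most 3419 elsewhere, and the thalamic Slc17a6 was at 11346 to 13812 in striatum/thalamus and at most 5545 elsewhere. Eomes, a marker of unipolar brush cells, was at 329 to 839 in cerebellum and at most 67.3 elsewhere.

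In sham pups most members differed between regions. In cortex, 5 members were higher and 11 lower than in cerebellum at an adjusted p under 0.05 (edgeR quasi-likelihood test with pup as a block, Benjamini-Hochberg over all genes tested), while 31.5% of all genes were called higher and 35.7% lower. In striatum/thalamus, 10 members were higher and 10 lower than in cerebellum, with 32.2% and 32.4% of all genes. Cortex exceeded striatum/thalamus in 6 members and was below it in 6, with 18% and 22% of all genes. With library sizes scaled by the 13 reference genes this last split became 5 higher and 8 lower, beside 11.9% and 30.3% of all genes. In all, 24 of 29 members (82.8%) passed in at least 1 of these 3 comparisons, close to the 78.6% of all genes. The members that passed in none were Casp4, Casp9, Bik, Fadd and Birc3. In bulk tissue, fewer cells of a type and less RNA per cell cannot be told apart.

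**Figure D1:**
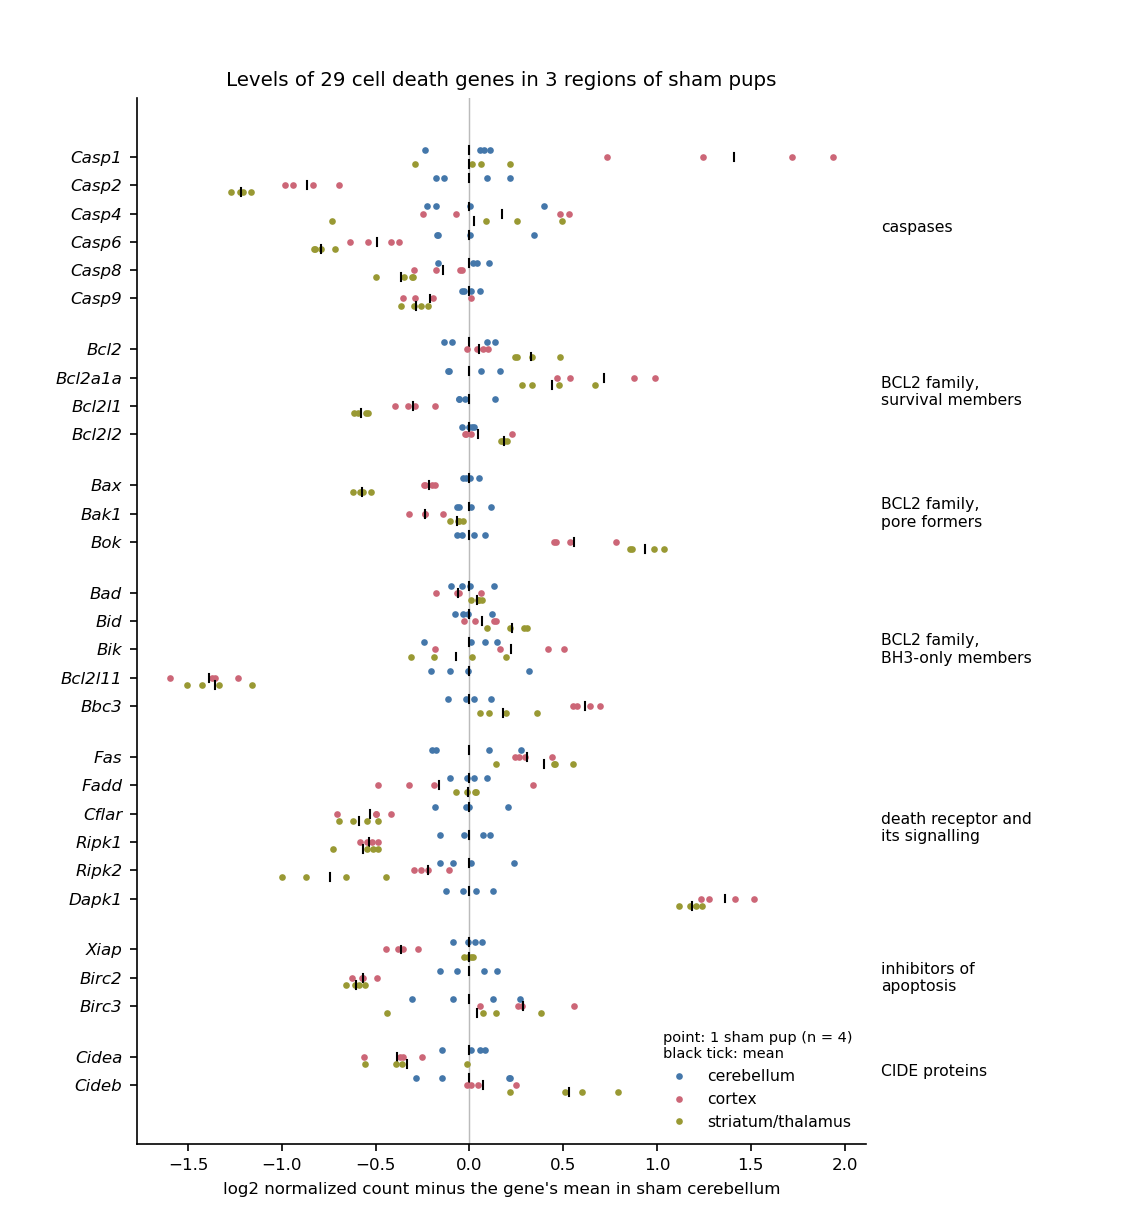
Each point is the log2 normalized count of 1 sham pup minus the mean of that gene in sham cerebellum (horizontal axis), by gene and role (vertical axis), with colors for the 3 regions and a black tick at the mean of 4 pups. Dapk1, Casp1 in cortex and Bok sit to the right, and Bcl2l11 and Casp2 to the left, while the 3 regions of Bad lie close together.

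Among the caspases, Casp1, the inflammatory caspase that matures interleukin-1 beta, stood out in cortex. Its normalized counts in sham pups 2, 3, 6 and 8 were 95.1, 189, 220 and 136 in cortex, 60.4, 48.5, 61.7 and 59.5 in cerebellum, and 59.7, 46.8, 57.8 and 66.5 in striatum/thalamus. Every cortex exceeded every other library, although the cortices themselves spread widely (160 ± 55.4, SD, n = 4). The log2 fold change was 1.52 ± 0.21 (SE; adjusted p = 7.18e-05) against cerebellum and 1.40 ± 0.21 (adjusted p = 0.000331) against striatum/thalamus. Casp2, a caspase linked to DNA damage and the p53 pathway, ran the other way: 1021, 934, 799 and 776 in cerebellum, 541, 457, 444 and 492 in cortex, and 380, 363, 375 and 391 in striatum/thalamus. The 3 regions did not overlap, with cerebellum highest and striatum/thalamus lowest. Its log2 fold change against cerebellum was -0.80 ± 0.08 (adjusted p = 3.76e-06) in cortex and -1.11 ± 0.08 (adjusted p = 4.91e-07) in striatum/thalamus, and cortex exceeded striatum/thalamus by 0.31 ± 0.08 (adjusted p = 0.00765). Casp6, an executioner caspase, was also lower in striatum/thalamus than in cerebellum (log2 fold change -0.69 ± 0.10, adjusted p = 0.000136). Casp8, the initiator of the receptor route, passed only in that comparison (adjusted p = 0.0309) and lost the call when sham pup 2, 3 or 6 was left out (adjusted p of 0.0552 to 0.146) and with reference-gene scaling (adjusted p = 0.169).

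Within the BCL2 family the 3 pore formers followed 3 different regional orders. Bok rose from cerebellum (447, 402, 429 and 411 in sham pups 2, 3, 6 and 8) to cortex (613, 724, 578 and 580) and striatum/thalamus (764, 866, 834 and 770). The 3 sets did not overlap, and the log2 fold change against cerebellum was 0.63 ± 0.08 (adjusted p = 2.67e-05) in cortex and 1.04 ± 0.08 (adjusted p = 7.82e-07) in striatum/thalamus. Bax had the opposite order, with 805 to 854 in cerebellum, 698 to 726 in cortex and 536 to 573 in striatum/thalamus, and cortex exceeded striatum/thalamus by 0.32 ± 0.05 on the log2 scale (adjusted p = 0.000455). Bak1, the other classical pore former, was lowest in cortex (log2 fold change against striatum/thalamus -0.21 ± 0.05, adjusted p = 0.00503), a call that was lost without sham pup 3 (adjusted p = 0.0525). Of the survival members, Bcl2l1, which encodes BCL-xL, was highest in cerebellum (1616 to 1845) and lowest in striatum/thalamus (1098 to 1157). It passed in all 3 comparisons, but cortex against striatum/thalamus was lost with reference-gene scaling (adjusted p = 0.0712). Bcl2 had its highest values in striatum/thalamus (184 to 217), where it exceeded cortex (154 to 166; cortex against striatum/thalamus -0.32 ± 0.09, adjusted p = 0.0147), and this call too was lost without sham pup 8 (adjusted p = 0.0558). Set against each other, the raw counts of Bax over Bcl2 were 4.72 to 6.03 in sham cerebellum, 4.32 to 4.53 in cortex and 2.64 to 3.03 in striatum/thalamus, and were lowest in striatum/thalamus. Other ratios had other orders: Bax over Bcl2l1 was 0.463 to 0.503, 0.490 to 0.562 and 0.477 to 0.521 in the same order, and Bok over Bcl2l1 ran the other way, with 0.242 to 0.265, 0.390 to 0.567 and 0.672 to 0.779. In HIBI pups the ratios of Bax over Bcl2 were 4.68 to 6.14, 3.69 to 5.04 and 2.59 to 3.72, and the arms overlapped in each region. The arms of Bax over Bcl2l1 overlapped in each region too. Bok over Bcl2l1 in HIBI pups was 0.266 to 0.292, 0.411 to 0.471 and 0.395 to 0.931. For that ratio the arms overlapped in cortex and striatum/thalamus but not in cerebellum, and the difference was not tested.

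The BH3-only members split as well. Bcl2l11, which encodes BIM, was highest in cerebellum: 299, 223, 208 and 238 there in sham pups 2, 3, 6 and 8, against 79.2, 102, 92.6 and 93.7 in cortex and 89.1, 84.3, 108 and 94.8 in striatum/thalamus. The forebrain levels were 0.40 and 0.42 of the cerebellar level (log2 fold changes -1.32 ± 0.13, adjusted p = 5.87e-06, and -1.26 ± 0.13, adjusted p = 9.84e-06), with no overlap between cerebellum and either region. Bbc3, which encodes the p53 target PUMA, was instead highest in cortex (216 to 238), intermediate in striatum/thalamus (153 to 189) and lowest in cerebellum (136 to 159), although the last pair overlapped. Its log2 fold change in cortex was 0.68 ± 0.09 against cerebellum (adjusted p = 3e-05) and 0.39 ± 0.08 against striatum/thalamus (adjusted p = 0.00326). Bid, which links the receptor route to mitochondria, and Bad passed as higher in striatum/thalamus than in cerebellum, but Bad (adjusted p = 0.0384) lost the call without sham pup 3, 6 or 8, with DESeq2 and with no filter (adjusted p of 0.106 to 0.159).

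In the group listed with the death receptor Fas, Dapk1 showed the most extreme adjusted p of the members. It encodes a calcium and calmodulin regulated kinase linked to neuronal death, and is not part of the receptor route as outlined above. Its normalized counts were 575, 642, 685 and 614 in cerebellum of sham pups 2, 3, 6 and 8, 1797, 1478, 1520 and 1677 in cortex, and 1419, 1448, 1359 and 1482 in striatum/thalamus. All 8 forebrain libraries exceeded all 4 cerebellar ones, by 2.69-fold in cortex (log2 1.43 ± 0.08, adjusted p = 9.55e-08) and 2.44-fold in striatum/thalamus (log2 1.29 ± 0.08, adjusted p = 3.12e-07). Cflar and Ripk1 were lower in cortex than in cerebellum (log2 fold changes -0.46 ± 0.08, adjusted p = 0.000235, and -0.47 ± 0.09, adjusted p = 0.000894). Both were also lower in striatum/thalamus (-0.48 and -0.46), whereas the adaptor Fadd passed in no comparison and Casp8 did not pass in cortex against cerebellum. Ripk2, a kinase of the NOD pathway, was lowest in striatum/thalamus (log2 fold change against cerebellum -0.63 ± 0.09, adjusted p = 9.44e-05, and cortex over striatum/thalamus 0.48 ± 0.09, adjusted p = 0.00153). Fas itself was higher in striatum/thalamus than in cerebellum (0.50 ± 0.14, adjusted p = 0.00943), but only 1 of the 4 sham libraries of each region was above background, and the call was lost with DESeq2 (adjusted p = 0.0756), with background subtraction (adjusted p = 0.14) and without sham pup 8 (adjusted p = 0.0768).

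Among the inhibitors of apoptosis, Birc2 was lower in both forebrain regions than in cerebellum, where sham pups 2, 3, 6 and 8 had 1370, 1306, 1179 and 1109 normalized counts. Cortex was at 800 to 879 and striatum/thalamus at 784 to 842, which gave log2 fold changes of -0.50 ± 0.06 in each (adjusted p = 3.07e-05 and 3.77e-05). Xiap was lowest in cortex (3288 to 3700) and was at 4379 to 4526 in striatum/thalamus, a log2 fold change of -0.40 ± 0.04 (adjusted p = 3e-05). Cideb, named for a DNA fragmentation factor domain and better known from lipid transport in liver, was higher in striatum/thalamus than in cerebellum (0.64 ± 0.16, adjusted p = 0.0042) and in cortex (cortex against striatum/thalamus -0.51 ± 0.16, adjusted p = 0.0245). The second of these calls was lost with DESeq2 (adjusted p = 0.0553) and without sham pup 3 or 8 (adjusted p of 0.115 and 0.0852).

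Cell type markers differed between the same regions. The sum of 9 microglial markers was 2593 to 3602 in sham cerebellum, 5763 to 6353 in cortex and 4374 to 4798 in striatum/thalamus, and all 9 passed as higher in each forebrain region, beside Casp1 and Bcl2a1a, a survival gene of myeloid cells that was also higher in cortex (0.79 ± 0.12, adjusted p = 0.000105) and striatum/thalamus (0.55 ± 0.12, adjusted p = 0.00177). Casp1 itself did not pass in striatum/thalamus against cerebellum (0.11 ± 0.24, adjusted p = 0.702), although the microglial sum was higher there in every pup. The sum of 7 neuronal markers was 34287 to 38042 in cerebellum, 54671 to 56367 in cortex and 42928 to 46033 in striatum/thalamus. The 7 did not all move together. In cortex against cerebellum 5 passed as higher and 1 as lower, and in striatum/thalamus against cerebellum 4 and 2. In cortex against striatum/thalamus 4 passed as higher and 1 as lower. Oligodendrocyte markers, 9 genes, summed to 56346 to 80795, 14137 to 20356 and 24982 to 42328 in the same order. The part of cell composition in the regional levels was not tested.

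**Figure D2:**
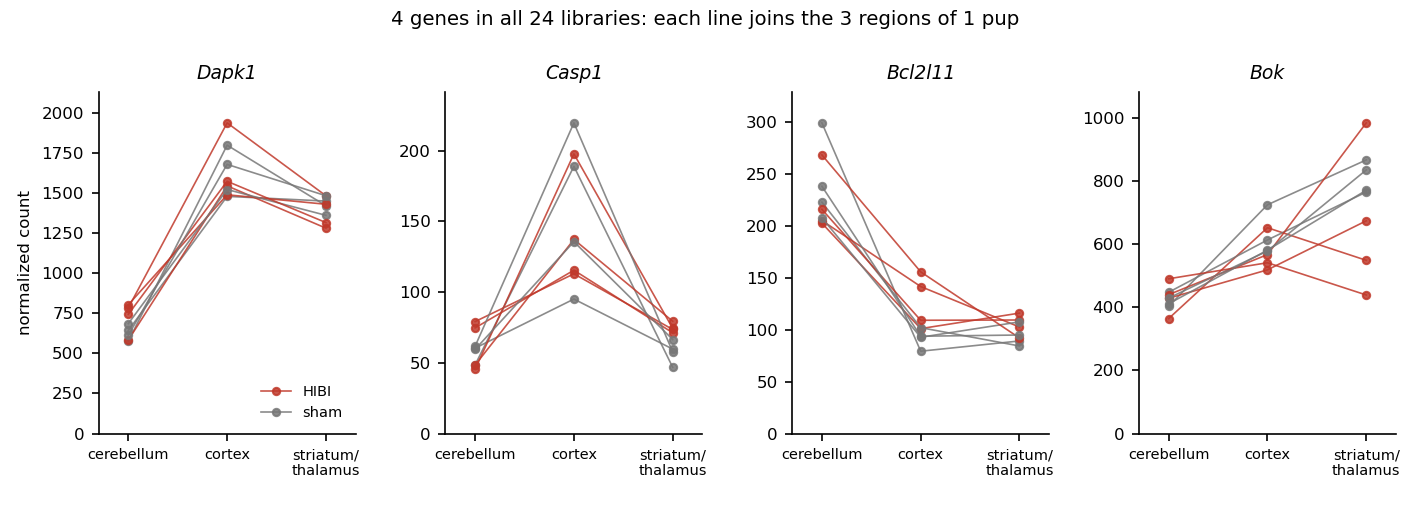
Normalized counts (vertical axis, from 0) of Dapk1, Casp1, Bcl2l11 and Bok in the 3 regions (horizontal axis) of all 8 pups, each line joining 1 pup, with HIBI in red and sham in gray. The lines of both arms run together for Dapk1 and fall from cerebellum to forebrain for Bcl2l11, whereas for Bok in striatum/thalamus the HIBI pups spread from 438 to 983 around sham pups at 764 to 866.

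The study used these libraries to look at mRNA levels beside its miRNA changes early after HIBI. In HIBI against sham, no member passed an adjusted p of 0.05 in any region. The lowest adjusted p among the 29 was 0.224 in cerebellum, 0.276 in cortex and 0.118 in striatum/thalamus (edgeR), while 0.42%, 2.33% and 2.73% of all genes passed. At an unadjusted p under 0.05 there were 3, 1 and 3 members, beside 16.4%, 9.44% and 18.3% of all genes. The study took a fold over 1.5 with a p and/or false discovery rate under 0.05, on data normalized and analysed in nSolver. Here a fold over 1.5 with an unadjusted p under 0.05 was applied to the edgeR fit with TMM scaling. That gave 0 members in each region, beside 3.64%, 3.83% and 4.1% of all genes.

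The intervals were narrow for most members. The 95% interval of the log2 fold change lay wholly inside 1.5-fold in either direction for 26 members in cerebellum, 23 in cortex and 24 in striatum/thalamus (89.7%, 79.3% and 82.8%, against 66.8%, 77.6% and 73.5% of all genes). The members whose interval reached beyond it were Birc3, Bcl2a1a and Fas in cerebellum, Casp1, Casp4, Bcl2l11, Fadd, Birc3 and Cideb in cortex, and Casp1, Casp4, Bok, Fas and Cidea in striatum/thalamus, so for these a change of 1.5-fold lay within the interval. The counts inside include values near background: Bik in all 3 regions, Casp4 in cerebellum, Fas in cortex and Birc3 in striatum/thalamus. Background counts hold a fold close to 1, so these intervals do not bound a change in the transcript. Over all alternatives, background subtraction among them, the log2 fold change ran from 0.38 to 1.40 for Casp4 in striatum/thalamus. It ran from 0.39 to 0.88 for Fas there and from 0.37 to 0.89 for Birc3 in cerebellum. The median log2 fold change over the 29 was -0.06, -0.06 and 0.02, and over all genes 0.00, -0.01 and 0.00. The sign of these small values depended on the scaling: with the 13 reference genes the median over all genes moved by 0.12 in cerebellum and 0.09 in cortex, and the members with a positive value went from 13 to 22 and from 10 to 20, whereas the median of the members minus that of all genes was -0.06 and -0.05 with TMM scaling and -0.07 and -0.05 with reference genes. By role, the medians lay between -0.11 (BH3-only members in cortex) and 0.18 (caspases in striatum/thalamus).

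**Figure D3:**
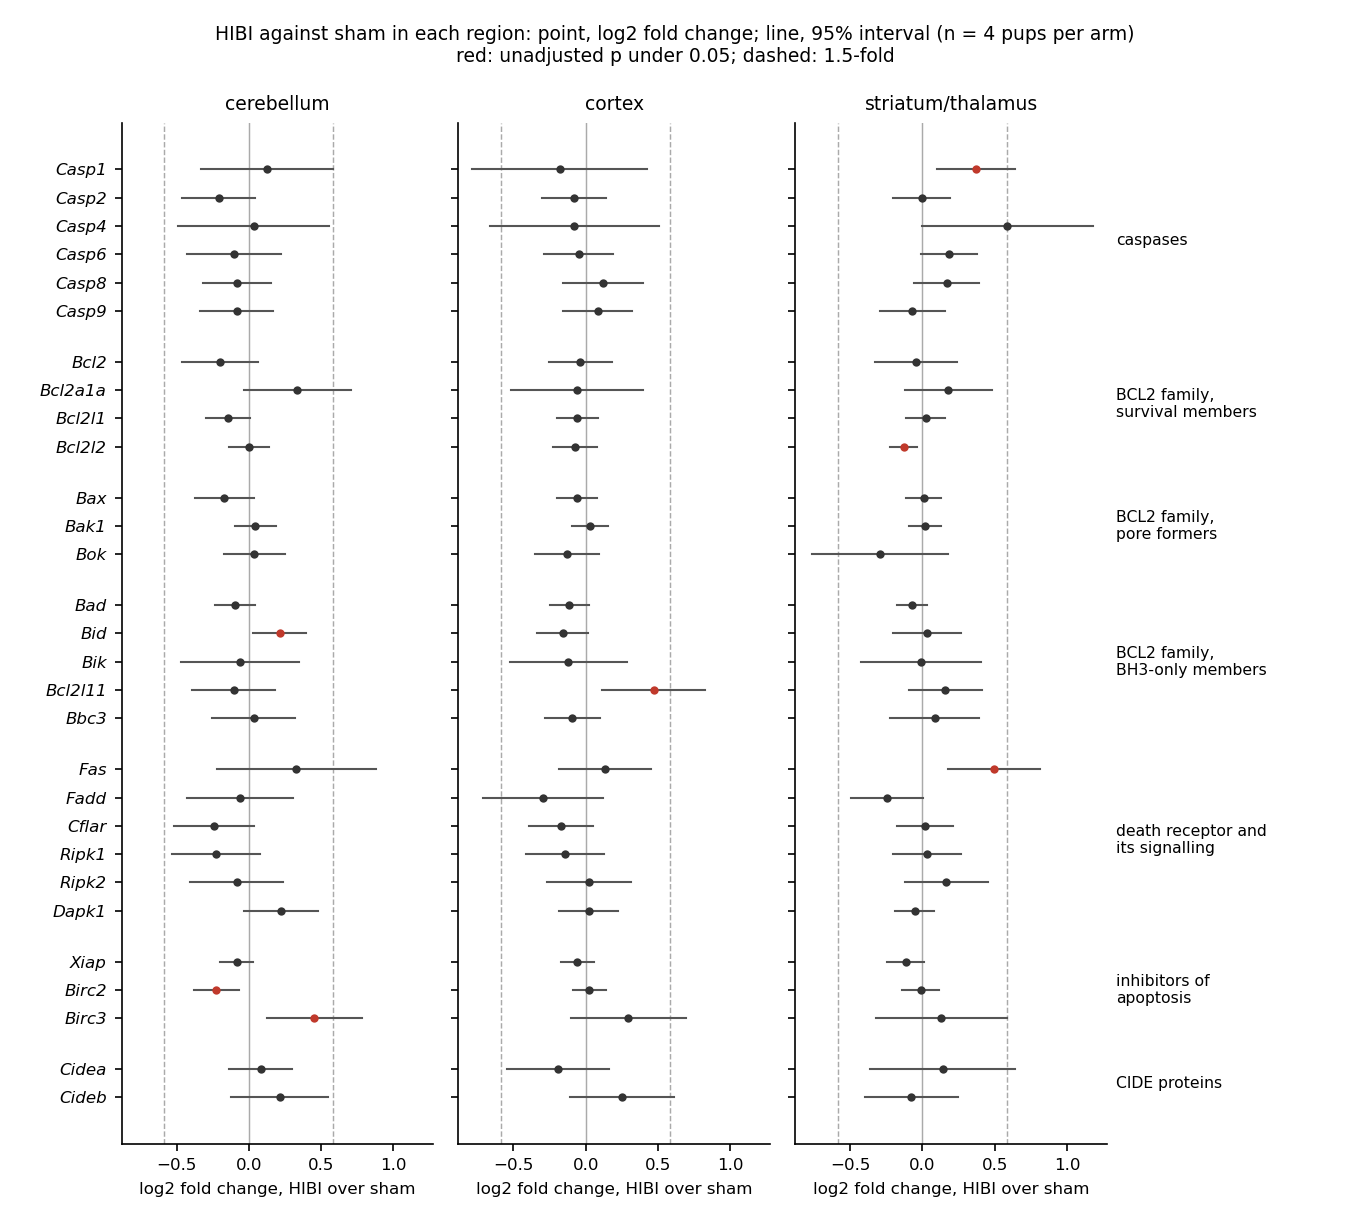
Log2 fold change of HIBI over sham (horizontal axis, point) with its 95% interval (line) for the 29 members grouped by role (vertical axis) in the 3 regions, n = 4 pups per arm, with red points at an unadjusted p under 0.05 and dashed lines at 1.5-fold. Most points lie near 0, and the red points are Birc2, Birc3 and Bid in cerebellum, Bcl2l11 in cortex, and Casp1, Bcl2l2 and Fas in striatum/thalamus.

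In cerebellum the 2 smallest p-values belonged to the neighbouring genes Birc2 and Birc3, with opposite signs. Birc2 was at 1085, 998, 1029 and 1095 in HIBI pups 1, 4, 5 and 7 and at 1370, 1306, 1179 and 1109 in sham pups 2, 3, 6 and 8. In these normalized counts all HIBI values lay below all sham values, by -0.22 ± 0.07 on the log2 scale (adjusted p = 0.224). Over all alternatives the log2 fold change ran from -0.26 to -0.11 and the adjusted p from 0.0325 to 0.517. The lowest adjusted p came from a single fit of all 24 libraries, where Birc2 passed (-0.24, adjusted p = 0.0325). That fit has no pup block, so it takes the 3 regions of a pup as independent. Birc3 was at 47.3, 45.4, 46.0 and 43.8 in HIBI pups and 31.1, 40.0, 26.7 and 36.1 in sham pups, close to the background of about 20 counts. All HIBI values exceeded all sham values (0.45 ± 0.15, adjusted p = 0.224), and 4 of 4 HIBI but 2 of 4 sham libraries were above background. Bid, likewise, was higher in every HIBI pup (513, 520, 540 and 510) than in every sham pup (450, 428, 492 and 441), with a log2 fold change of 0.21 ± 0.08 (adjusted p = 0.257). So the arms did not overlap for 2 members that were higher and 1 that was lower in HIBI, beside 4.48% and 2.66% of all genes. Bcl2l1 (-0.14 ± 0.07, adjusted p = 0.309) and Bcl2a1a (0.33 ± 0.16, adjusted p = 0.317) followed, and their arms overlapped. Over all alternatives their log2 fold changes ran from -0.17 to -0.03 and from 0.24 to 0.48. In cerebellum the microglial sum was 2593 to 3602 in sham pups and 3482 to 4329 in HIBI pups, with 0 of 9 markers past the threshold. The sum of 3 markers of infiltrating myeloid cells, 1 of them above background in all 4 libraries of each arm, was 104 to 113 in sham and 122 to 144 in HIBI cerebellum without overlap, and 0 of the 2 tested passed. The part of either in the cerebellar member values was not tested.

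In cortex, Bcl2l11 had the smallest p. It was at 101, 109, 142 and 156 in HIBI pups 1, 4, 5 and 7 and at 79.2, 102, 92.6 and 93.7 in sham pups. HIBI pup 1 fell within the sham range and pups 5 and 7 were well above it, giving a log2 fold change of 0.47 ± 0.16 (1.39-fold, adjusted p = 0.276). Bid, at 440, 391, 455 and 405 against 499, 495, 443 and 461 in sham pups, leaned lower (-0.16 ± 0.08, adjusted p = 0.662), the opposite sign to cerebellum. The next in order were Bad, a BH3-only protein held inactive by growth factor signalling (-0.11 ± 0.06, adjusted p = 0.686), Cflar (-0.17 ± 0.10, adjusted p = 0.697) and Birc3 (0.29 ± 0.18, adjusted p = 0.715). In cortex 0 members had arms that did not overlap in either direction, while 4.38% of all genes had higher and 1.64% lower values in every HIBI pup.

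In striatum/thalamus, Fas had the smallest p. It was at 63.5, 48.4, 45.3 and 52.3 in HIBI pups 1, 4, 5 and 7 and at 38.3, 30.9, 38.5 and 41.0 in sham pups, so that 4 of 4 HIBI and 1 of 4 sham libraries were above background. The arms did not overlap, and the log2 fold change was 0.50 ± 0.14 (1.41-fold, adjusted p = 0.118). Casp1 showed the same arrangement, with 73.6, 74.3, 71.2 and 79.4 in HIBI and 59.7, 46.8, 57.8 and 66.5 in sham pups (0.37 ± 0.12, adjusted p = 0.155), although its cortical values overlapped between arms (113 to 198 in HIBI, 95.1 to 220 in sham pups). In the striatum/thalamus libraries the microglial sum was 4374 to 4798 in sham and 4374 to 5537 in HIBI pups and the infiltrating myeloid sum 103 to 119 and 87.7 to 177, and their part in the Casp1 value was not tested. Bcl2l2, which encodes the survival protein BCL-w, was lower in all HIBI pups (2286, 2104, 2199 and 2172) than in all sham pups (2369, 2395, 2427 and 2388). The difference was small but even (-0.13 ± 0.04, adjusted p = 0.145). Thus 2 members were higher and 1 lower without overlap, beside 5.33% and 4.1% of all genes. Fadd (-0.25 ± 0.11, adjusted p = 0.271) and Casp4, an inflammatory caspase that senses bacterial lipopolysaccharide (0.59 ± 0.26, adjusted p = 0.274), followed, and 2 of 4 HIBI and 0 of 4 sham libraries were above background for Casp4.

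Bok in striatum/thalamus was singled out after its values were seen, because 1 pup decided its call. HIBI pups 1, 4, 5 and 7 had 548, 983, 673 and 438 normalized counts, and sham pups 2, 3, 6 and 8 had 764, 866, 834 and 770. Pup 4 was above every sham pup while the other 3 HIBI pups were below all of them, and the log2 fold change was -0.29 ± 0.21 (adjusted p = 0.48). Without HIBI pup 4 it was -0.55 (adjusted p = 0.0393), and without HIBI pups 4 and 5 it was -0.72 (adjusted p = 0.00682), with adjusted p between 0.00682 and 0.726 over all alternatives. The coefficient of variation of Bok among HIBI pups, 35.6%, was the highest of the 29 members in that group, where the median was 9.74%. The sum of 9 oligodendrocyte markers was 23624, 39909, 30700 and 16625 in the same HIBI pups, the same order as Bok. Slc17a7 (793, 1910, 951 and 659) and the choroid plexus marker Ttr (77.6, 3110, 2391 and 69.7) had that order too. Other markers did not: Tbr1, the other cortical gene, was at 96.7, 138.5, 128.4 and 139.4 in these pups. The astrocyte marker sum (22869, 18775, 22825 and 25653) had the reverse order, and the neuronal sum (41252, 43728, 39531 and 38950) had neither order. In sham pups 2, 3, 6 and 8 the oligodendrocyte sum was 34252, 35328, 42328 and 24982, not in the order of Bok. Between sham regions that sum was highest in cerebellum, where Bok was lowest. In sham striatum/thalamus against cerebellum, 7 of its 9 markers passed as lower and 1 as higher. In HIBI against sham striatum/thalamus all 9 were lower, as Bok was (median log2 fold change of the 9, -0.30), and 0 passed. The part of these markers in the Bok values was not tested.

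Other features of the striatum/thalamus libraries differed between pups or between arms. Ttr, a choroid plexus marker, was at 3110 and 2391 in HIBI pups 4 and 5 and at most 147 in the other 6 libraries. Slc17a6 was at 8020 to 10380 in HIBI and 11346 to 13812 in sham pups (log2 fold change -0.49 ± 0.09, adjusted p = 0.0217). Eomes, used above to check the cerebellum label, was at 60.5 to 92.8 in HIBI and 17.8 to 38.3 in sham pups. It passed as higher in HIBI (log2 fold change 1.23), although it was not above background in all 4 sham libraries. Endogenous counts summed to 766000 to 838353 in HIBI and 849026 to 955730 in sham libraries (two-sided exact permutation p = 0.0286, the smallest that 4 against 4 allows). Without HIBI pups 4 and 5 the log2 fold changes of Fas (0.63, adjusted p = 0.0556), Casp1 (0.40, adjusted p = 0.153) and Bcl2l2 (-0.11, adjusted p = 0.172) kept their sign and did not pass, and the part of dissection in the member values was not tested.

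**Figure D4:**
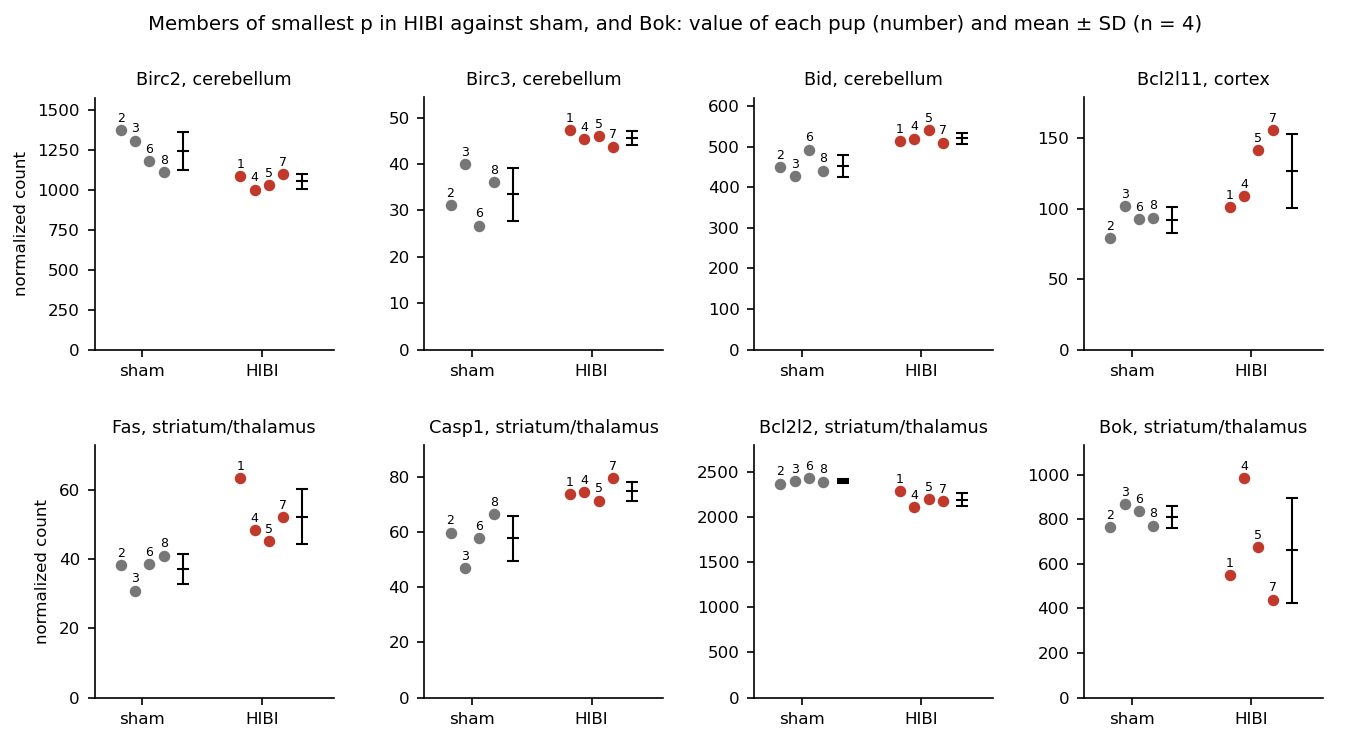
Normalized counts (vertical axis, from 0) of single pups (numbered points) in sham and HIBI (horizontal axis), with mean ± SD of 4 pups in black, for the members of smallest p in each region and for Bok. The arms do not overlap for Birc2, Birc3 and Bid in cerebellum or for Fas, Casp1 and Bcl2l2 in striatum/thalamus, and HIBI pup 4 stands above the other HIBI pups for Bok.

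The HIBI effect itself was compared between regions with an interaction term, all 24 libraries being fitted together and pup being the block. No member passed. The comparison of cortex with cerebellum had 4 members at an unadjusted p under 0.05, beside 10.3% of all genes (0% at an adjusted p under 0.05), led by Bid (difference of log2 fold changes -0.37 ± 0.11, adjusted p = 0.302), Birc2 (0.25 ± 0.09, adjusted p = 0.36) and Bcl2l11 (0.57 ± 0.21, adjusted p = 0.362). Striatum/thalamus against cerebellum had 2, beside 13.8% (0.805% adjusted), led by Birc2 (0.23 ± 0.09, adjusted p = 0.286), Dapk1 (-0.26 ± 0.12, adjusted p = 0.36) and Cflar (0.28 ± 0.13, adjusted p = 0.366). Cortex against striatum/thalamus had 0, beside 6.17% (0% adjusted), with Casp4 (-0.66 ± 0.37), Bid (-0.19 ± 0.11) and Casp1 (-0.54 ± 0.34) in front, each at an adjusted p of 0.778 or above. The opposite signs of Bid in cerebellum and cortex were thus not called as a difference between regions.

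Of a wider list of 55 genes of the same pathways, 33 were on the panel. In HIBI against sham, 0 of the 32 tested passed in cerebellum, 2 of 33 in cortex and 1 of 33 in striatum/thalamus, all higher, beside 0.42%, 2.33% and 2.73% of all genes. Gadd45g, a stress-induced gene of growth arrest, was at 380, 762, 1092 and 1211 in the cortex of HIBI pups 1, 4, 5 and 7 and at 188 to 215 in sham pups, without overlap (log2 fold change 2.11 ± 0.31, adjusted p = 0.00752). In striatum/thalamus it was at 386 to 657 in HIBI and 209 to 232 in sham pups (1.08, adjusted p = 0.0127), a call lost without sham pup 3, 6 or 8 (adjusted p of 0.0519 to 0.0586). In cerebellum it was at 357 to 657 in HIBI and 308 to 344 in sham pups, without overlap. The log2 fold change there was 0.68 (adjusted p = 0.199), and it passed without HIBI pup 7 (0.85, adjusted p = 0.0213). Tnfrsf10b, a death receptor for the ligand TRAIL, was at 53.2, 57.7, 84.3 and 74.7 in the cortex of HIBI pups and at 34.9 to 44.5 in sham pups (0.80 ± 0.17, adjusted p = 0.0483). That call was lost when pup 2, 3, 5, 6, 7 or 8 was left out (adjusted p of 0.0783 to 0.158). Between sham regions, 4 genes of this list were higher and 17 lower in cortex than in cerebellum (31.5% and 35.7% of all genes). Striatum/thalamus against cerebellum gave 9 and 15 (32.2% and 32.4%), and cortex against striatum/thalamus 6 and 7 (18% and 22%).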

How the data were processed

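Deposited raw barcode counts of 784 probes were analysed: 757 endogenous genes, 13 reference genes, 6 positive and 8 negative controls, imaged by the nCounter without amplification. The second deposited table, which the authors exported from nSolver under settings that the sources used here do not state, holds group means, SDs, folds and p-values; only its probe classes and accessions were used. R 4.3.3 with edgeR 4.0.16 (quasi-likelihood F test, TMM factors, two-sided), limma 3.58.1 and DESeq2 1.42.0 were used. Genes with at least 20 counts in at least 4 fitted libraries were tested, and p-values were adjusted by Benjamini-Hochberg over all of them (threshold 0.05). Regions were fitted separately for HIBI against sham. Sham regions and interactions carried pup as a block, since the labels give the same subject number to the 3 regions of an animal; 18 of 24 same-pup pairs of libraries had deviations from the group means that correlated above 0.1 (median r 0.21). Fold changes are log2, with the SE of the fit; printed normalized counts use 1 scaling of all 24 libraries. All replicate pairs differed beyond sampling noise. Pups are separate animals, from litters not given. The fits were checked on simulated data.

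Named members were, for HIBI against sham, those passing or otherwise the 5 of smallest p; for sham regions, up to 5 per direction with the largest change among those passing; for interactions, those passing or the 3 of smallest p. Further members were named to cover each role, and Bok in striatum/thalamus, Gadd45g and Tnfrsf10b after their values were seen. Members of other pathway and marker lists were counted. Members and lists were chosen with earlier results of these data known. Alternatives were reference-gene scaling, DESeq2, limma-voom, limma on log2 reference-scaled counts, 2 other filters and background subtraction. Others were 1 fit of all libraries without a pup block for HIBI against sham, and no block for sham regions and interactions. Each pup was also left out, as were the striatum/thalamus libraries of HIBI pups 4 and 5.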

Additional observations from a re-analysis of the deposited data

Results flagged for a closer look

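Within groups of 4 pups, 7 of the 174 member-by-group sets of values held a pup set far apart from the other 3 by Dixon's test, where chance would flag about 1 in 20 (8.7 sets). A low value stood apart for Casp1 in cerebellum of sham pup 3 (48.5 normalized counts, the others 59.5 to 61.7), Bik in cortex of HIBI pup 7 (20.5, the others 23.9 to 24.6) and Fas in cortex of HIBI pup 7 (29.7, the others 40.2 to 41.6). Casp6 was high in cerebellum of HIBI pup 7 (264, the others 183 to 195). Bcl2l2 was high in cortex of sham pup 6 (2470, the others 2077 to 2122). In striatum/thalamus, Fadd was high in HIBI pup 4 (78.8, the others 60.0 to 61.5) and Cflar was low in HIBI pup 1 (222, the others 257 to 259). The flags fell on 6 libraries, with 2 in the cortex library of HIBI pup 7.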

How the results depend on the processing

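The count of members passing HIBI against sham was 0 under all alternatives in cortex. In cerebellum it was 1 (Birc2) in a single fit of all 24 libraries without a pup block and 0 under the others. In striatum/thalamus it was 1 (Bok, lower) without the Ttr-rich libraries of HIBI pups 4 and 5, and 0 to 1 when single pups were left out (1 without HIBI pup 4). In sham pups, members lower in cortex than in striatum/thalamus numbered 3 to 7 when single pups were left out (3 without pup 3 or 8). Without the pup block, the sham counts of members higher and lower were 5 and 11, 10 and 10, and 6 and 7, and 0 members passed an interaction; member by member, the only call that changed without the block was Bid in cortex against striatum/thalamus (gained, adjusted p = 0.0443). Of the members called in sham comparisons, 13 of 16, 16 of 20 and 7 of 12 kept the call under all 11 alternatives, and no called member changed sign. Besides the losses given with the regional levels, calls were lost for Bax (adjusted p of 0.0539 to 0.0956), Cidea (0.057 to 0.156) and Bak1 (0.0524 to 0.0686) in cortex against cerebellum, for Bbc3 (0.0704, without sham pup 2) in striatum/thalamus against cerebellum, and for Bcl2l2 (0.0643 to 0.125) in cortex against striatum/thalamus. The number of all genes passing HIBI against sham moved more. In cerebellum it went from 3 to between 0 and 49 (15 with DESeq2, 49 in the single fit without a pup block). In cortex it went from 17 to between 7 and 27 (27 with reference genes). In striatum/thalamus it went from 20 to between 5 and 56 (42 with DESeq2, 50 without the Ttr-rich libraries). For the interaction of striatum/thalamus with cerebellum it was 6, 1 without the Ttr-rich libraries and 0 to 16 when single pups were left out, and for cortex with cerebellum 0, and 0 to 12. The causes were not tested. Members near the negative controls (Bik, Casp4, Fas, Birc3) are limited by counts of 15 to 63, and 4 pups per arm limit all comparisons.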
